A study of Homo sapiens with 2 samples.

Results

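Fibrinogen is encoded by 3 neighbouring genes, FGA, FGB and FGG, and fibrinogen-like 1 (FGL1) encodes a secreted liver protein that carries the same kind of C-terminal domain. These 4 genes, of 60623 gene entries counted in the files, are described here in FFA-loaded HepG2 cells without and with 9-cis-RA. They were chosen by name and with their log2 fold changes in these libraries in view, so the difference between the libraries is given as a description. The transcripts of the 3 chains were all higher in the FFA + 9-cis-RA library (called the 9-cis-RA library in the rest of the text), by 2.90-fold for FGA, 2.20-fold for FGG and 1.79-fold for FGB. The FGL1 transcript was slightly lower, at 0.824 times its level in the FFA library. All 4 reached the minimum of 10 counts summed over the libraries, as did 20431 genes in total, which were compared.

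HepG2 is an established human hepatocellular carcinoma line, here of wild-type genotype, and the single line limits what the cells stand for. Cells of both groups received 1 mM free fatty acids (FFA), a BSA-bound mix of oleic and palmitic acid, for 24 h to load them with lipid, and 1 group was also given 9-cis-RA, a retinoic acid isomer that binds the retinoid X and retinoic acid receptors, at 10 μM for 24 h. Poly(A) RNA was sequenced as 1 stranded library per group, both from the same batch in the sample records. Because each group is 1 library, no difference has a replicate check, and none is given a p-value or an SD.

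Hepatocytes secrete fibrinogen as a dimer of paired Aα, Bβ and γ chains, the products of FGA, FGB and FGG, which are joined by disulfide bonds in the endoplasmic reticulum. Thrombin cuts short peptides from the Aα and Bβ chains to turn fibrinogen into the fibrin of a clot. The chain genes belong to the acute phase response of the liver, in which interleukin-6 (IL-6) acts through STAT3 together with C/EBP factors, and FGL1, also IL-6-responsive, is a hepatocyte-derived protein and a ligand of the immune receptor LAG3.

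The promoters of the chain genes are shown because the chains differed in the same direction and sit side by side. RefSeq entries were found for 3 of the 4 genes. Each sequence is the 250 bases just upstream of the RefSeq start, 5′ to 3′ on the gene's strand, in build GRCh38.p14. The windows are chr4:154590743-154590992 on the minus strand for FGA, chr4:154562730-154562979 on the plus strand for FGB and chr4:154612657-154612906 on the minus strand for FGG. Capitals mark matches, on either strand, to the motifs listed after the sequences.
FGA: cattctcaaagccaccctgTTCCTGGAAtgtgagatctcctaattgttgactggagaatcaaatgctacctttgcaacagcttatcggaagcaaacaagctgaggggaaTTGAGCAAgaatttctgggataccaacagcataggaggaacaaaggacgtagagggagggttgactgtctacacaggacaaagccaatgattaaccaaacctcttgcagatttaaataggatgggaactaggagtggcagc
FGB: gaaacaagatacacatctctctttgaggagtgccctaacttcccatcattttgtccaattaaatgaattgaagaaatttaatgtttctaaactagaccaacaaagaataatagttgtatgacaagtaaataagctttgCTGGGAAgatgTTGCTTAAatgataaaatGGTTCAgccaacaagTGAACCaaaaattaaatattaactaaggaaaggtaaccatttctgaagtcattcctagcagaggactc
FGG: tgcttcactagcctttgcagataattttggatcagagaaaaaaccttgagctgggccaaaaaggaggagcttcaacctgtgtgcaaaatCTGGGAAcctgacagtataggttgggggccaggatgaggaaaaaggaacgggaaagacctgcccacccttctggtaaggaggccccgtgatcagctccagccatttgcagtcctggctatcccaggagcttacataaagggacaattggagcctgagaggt

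The IL-6 response core CTGGGAA was matched in the FGB window from -112 to -106 and in the FGG window from -161 to -155, counted from the start site. This motif was present in 9.15% of the 35116 RefSeq promoter windows of the same length. The FGA window did not hold these letters.

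The C/EBP motif TTGCNNAA was matched once in FGA, from -141 to -134 on the opposite strand, once in FGB, from -101 to -94, and in 9.05% of all windows. The STAT motif TTCNNNGAA was matched in FGA from -231 to -223 and in 6.57% of all windows. The nuclear receptor hexamers, searched as AGGTCA and GGGTCA and also as AGTTCA and GGTTCA, were matched only in FGB among the 3 windows, from -83 to -78 and, on the opposite strand, from -68 to -63. Such a hexamer was present in 33.8% of all windows. A direct repeat of the hexamers with 1 to 5 bases between them, the arrangement that retinoid receptors are known to bind, was in 0.339% of all windows and was not matched in these 3, which says only that the letters are not in these windows. A second RefSeq start of FGB lies a short way downstream, and its overlapping window held the same 4 matches. None of the 3 windows lies wholly upstream of the start in the files' annotation, which is at 154590745 for FGA and 154562956 for FGB, both inside their windows, and at 154612967 for FGG, upstream of its window. A match describes letters and does not show binding, and no measurement in these libraries read the promoters.

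The summed gene counts were 60821539 for FFA and 57669670 for FFA + 9-cis-RA. Values were divided by DESeq2 size factors and are called normalized counts, and log2 fold changes, with a pseudocount of 1, are positive where the 9-cis-RA library was higher. The 95% intervals are exact (Clopper-Pearson for changes and shares, Poisson for levels), cover counting error only and compare the libraries, not the conditions. They narrow as counts rise, so a well-counted gene can leave 0 at a small difference. The shares of all genes given beside the lists are not matched for count level. Over all compared genes the median log2 fold change was -0.020. The hepatocyte and hepatoma markers were abundant as a sum, with 1139660 and 951439 normalized counts over 7 genes. TTR was the scarce one, with 341 and 278 counts. The interval lay above 0 for 3 of the 7 and below 0 for 4 (all genes: 22.5% above and 25.7% below). AFP, the fetal and hepatoma marker alpha-fetoprotein, went from 273242 to 134862 counts (-0.99 on the log2 scale), and APOB, the apolipoprotein of VLDL, had 262363 and 266440. Of 12 markers of leukocytes, endothelium and stromal cells, 7 reached the count minimum, and the sum of the 12 was 1505 and 1004 normalized counts. ACTA2 (1186 and 773 counts, sharing 13.5% of its exonic bases with another gene) and VWF (184 and 118) were the most abundant. The interval lay above 0 for 1 of the 7, below 0 for 3 and held 0 for 3, beside the same shares of all genes. The marker above 0 was CD68, a macrophage marker, with 5 and 15 counts and a log2 fold change of 1.44 (0.079 to 3.43). PTPRC and DCN, which mark leukocytes and fibroblasts, were at 0 in both libraries. The part of these markers in the values of the 4 genes was not tested. All 3 retinoid response genes that check the labels were higher with 9-cis-RA, DHRS3, a retinaldehyde reductase, with 1126 and 1999 counts, RARB, a retinoic acid receptor, with 6 and 46, and CYP26A1, a retinoic acid hydroxylase that shares 25.3% of its exonic bases with another gene, with 4 and 709. In bulk RNA, fewer cells that express a gene and less of its RNA per cell cannot be told apart.

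FGA, which encodes the Aα chain, had 5044 counts with FFA and 14333 with FFA + 9-cis-RA. The normalized counts were 4996 (95% interval 4859 to 5136) and 14471 (14235 to 14710). The log2 fold change was 1.53, with an interval from 1.49 to 1.58. On the log2 scale FGA thus had the largest difference of the 3 chains, and the counting intervals of its levels lay far apart. Identifier ENSG00000171560 places it on chromosome 4 from 154583128 to 154590745 of GRCh38, on the minus strand, with 3918 exonic bases.

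FGG, which encodes the γ chain, was the most abundant of the 4 genes in both libraries. It was counted 12215 and 26421 times, FFA first here and in each later pair of values. The normalized counts were 12099 (11885 to 12315) and 26675 (26354 to 26999), and the log2 fold change was 1.14 (95% interval 1.11 to 1.17). In normalized counts FGG also had the largest difference of the chains, 14577 against 9475 for FGA and 1260 for FGB. The gene, ENSG00000171557, lies upstream of FGA on the same strand of chromosome 4, from 154604134 to 154612967, with 3600 exonic bases.

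FGB, which encodes the Bβ chain, was the least abundant chain in both libraries. It had 1603 and 2821 counts. The normalized counts were 1588 (1511 to 1667) and 2848 (2744 to 2955), and the log2 fold change was 0.84 (95% interval 0.75 to 0.93), under the threshold of 1 that FGA and FGG passed. The whole interval of FGB lay below those of the other chains. FGB, ENSG00000171564, is on the opposite strand of chromosome 4, from 154562956 to 154571086, and has 2708 exonic bases.

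FGL1, the hepatocyte-derived ligand of LAG3, had 8191 counts with FFA and 6621 with FFA + 9-cis-RA. The normalized counts were 8113 (7938 to 8291) and 6685 (6525 to 6848). Its log2 fold change was -0.28 (95% interval -0.33 to -0.23), opposite in sign to the 3 chains and close to the lower quartile of all compared genes, -0.26. FGL1, ENSG00000104760, is on chromosome 8 from 17864380 to 17910365 on the minus strand, with 3301 exonic bases. LAG3, its receptor on lymphocytes, was at 100 and 92 counts, and the interval of its log2 fold change of -0.092, from -0.52 to 0.33, held 0.

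**Figure D1:**
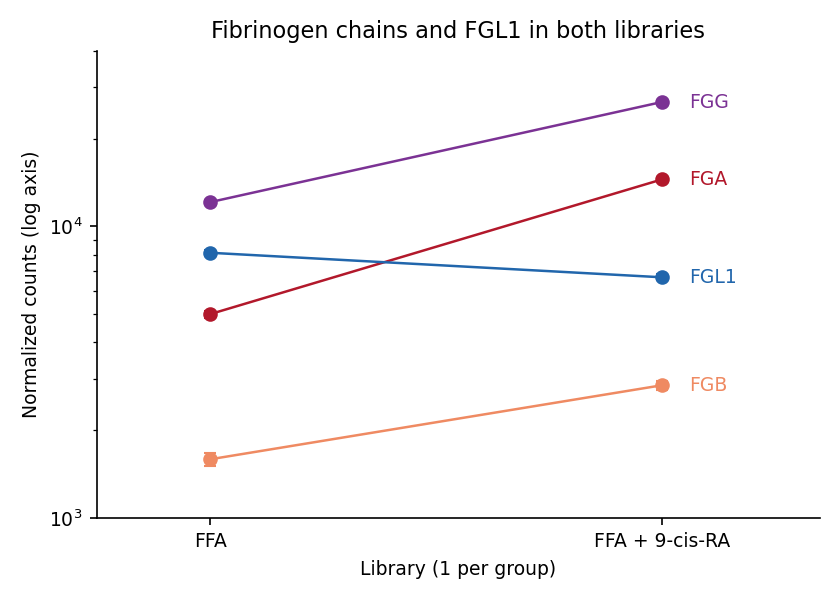
Normalized counts of FGA, FGB, FGG and FGL1 on a log axis in the FFA and 9-cis-RA libraries, 1 library per group, with exact 95% counting intervals, most of which are smaller than the points. The lines of the 3 chains go up, FGL1 goes down from 8113 to 6685, and the lines of FGA and FGL1 cross.

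None of the 4 genes shared exonic bases with another gene on its strand, and gene-level counts do not separate their isoforms. The annotation gives 3 coding transcripts for FGA, 2 for FGB, 4 for FGG and 7 for FGL1 in its basic set. The longer Aα-E form of FGA and the γ′ form of FGG, known alternative products, are therefore counted together with the common forms.

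A log2 fold change above 1 was held by 2 of the 4 genes, FGA and FGG, and by 3.37% of all compared genes. Both also had their whole interval above 1, as did 0.387% of all genes. The interval lay above 0 for the 3 chains, against 22.5% of all genes, and below 0 for FGL1, against 25.7%. None of the 4 was below -1, against 4.9% of all genes. Because the genes were picked with these differences known, nothing is read from the counts.

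Among the 8372 genes that had 1000 or more normalized counts in each library, 13 (0.155%) were above a log2 fold change of 1, and 2 of the 4 genes, FGA and FGG, were among them. FGA had the rank of 2 in that ordering, FGG of 7, FGB of 25 and FGL1 of 7518. CYP24A1, the vitamin D hydroxylase, stood above FGA with 4041 and 31195 counts and a log2 fold change of 2.98, and SREBF1, the regulator of lipid synthesis, came next after FGA at 1.52. The interval of SREBF1, 1.46 to 1.58, covered the value of FGA, so the order of these neighbours is not resolved by the counts.

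**Figure D2:**
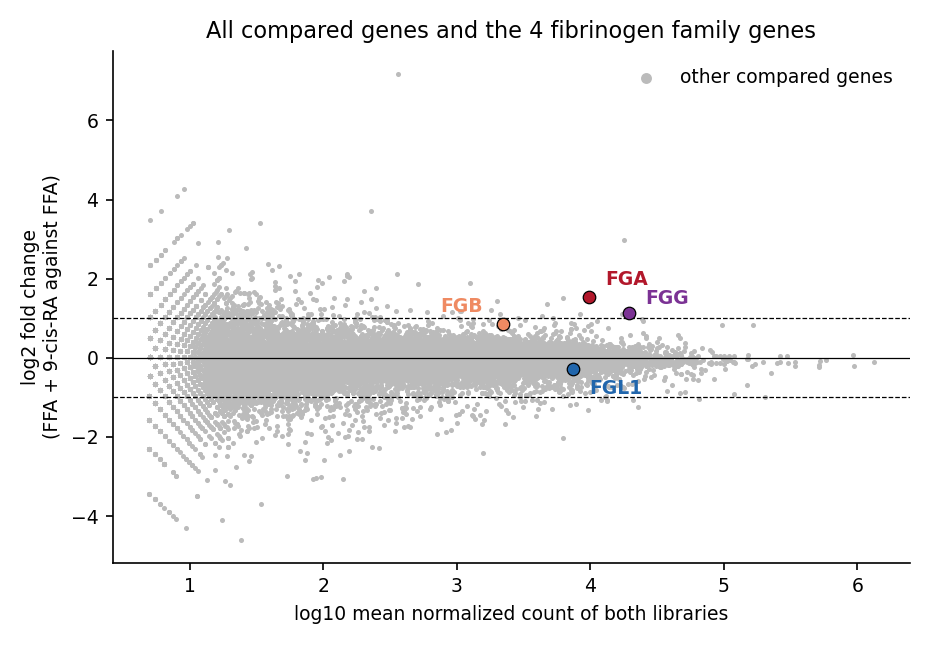
Log2 fold change (FFA + 9-cis-RA against FFA) of each of the 20431 compared genes against the log10 mean normalized count of both libraries, with FGA, FGB, FGG and FGL1 in color and dashed lines at 1 and -1. FGA (1.53) and FGG (1.14) stand above the cloud at high counts, FGB (0.84) lies under the upper dashed line, and FGL1 (-0.28) lies within the cloud.

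Levels of different genes were compared per kilobase of the exonic length in the files. In the FFA library the order was FGG with 3361 normalized counts per kilobase, FGL1 with 2458, FGA with 1275 and FGB with 586. In the 9-cis-RA library it was FGG with 7410, FGA with 3693, FGL1 with 2025 and FGB with 1052. FGA and FGL1 thus traded places, and the other genes kept theirs. Among protein-coding genes ordered by normalized counts per kilobase, FGG went from rank 677 to 222, FGA from 2118 to 562, FGB from 4388 to 2521, and FGL1 from 1004 to 1213.

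FGL1 was at 1.93 times the level of FGA per length with FFA and at 0.548 times that level with FFA + 9-cis-RA, a log2 change of -1.81 (95% interval -1.88 to -1.75). Its ratio to FGG per length was 0.731 and 0.273. The ratio of FGL1 to FGB was 4.19 and 1.93, so FGL1 stayed above FGB in both libraries. FGL1 was also above FGA in the FFA library and below it in the 9-cis-RA library with the length of the longest coding transcript (4125 against 1358, then 3398 against 3934 normalized counts per kilobase).

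The 3 chains assemble in equal numbers, and their transcripts were not equal in either library. Together they had 18862 and 43575 counts, which were 0.0310% and 0.0756% of all counts. The log2 fold change of the sum was 1.24 (95% interval 1.21 to 1.26). Of the summed counts, the share of FGA was 26.7% (95% interval 26.1% to 27.4%) and 32.9% (32.5% to 33.3%). The share of FGG was 64.8% (64.1% to 65.4%) and 60.6% (60.2% to 61.1%), and that of FGB was 8.50% (8.10% to 8.91%) and 6.47% (6.24% to 6.71%). FGA thus took a larger part of the chain counts in the 9-cis-RA library, and FGG and FGB a smaller part, with intervals that do not overlap.

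Per length, the ratio of FGA to FGG was 0.379 and 0.498, a log2 change of 0.39 (95% interval 0.34 to 0.45). The ratio of FGB to FGG was 0.174 and 0.142, a log2 change of -0.30 (-0.39 to -0.20). The widest shift was between FGA and FGB, 2.17 and 3.51, a log2 change of 0.69 (0.59 to 0.79). FGB, whose transcript was the scarcest chain in the FFA library, was thus further below its partners in the 9-cis-RA library. The changes do not depend on the lengths or on the scaling, which cancel within a ratio of ratios, but the ratios do depend on the lengths. With the longest well-supported coding transcript, chosen after the data were seen, the ratio of FGA to FGG was 0.323 and 0.425 and that of FGB to FGG was 0.117 and 0.0951.

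**Figure D3:**
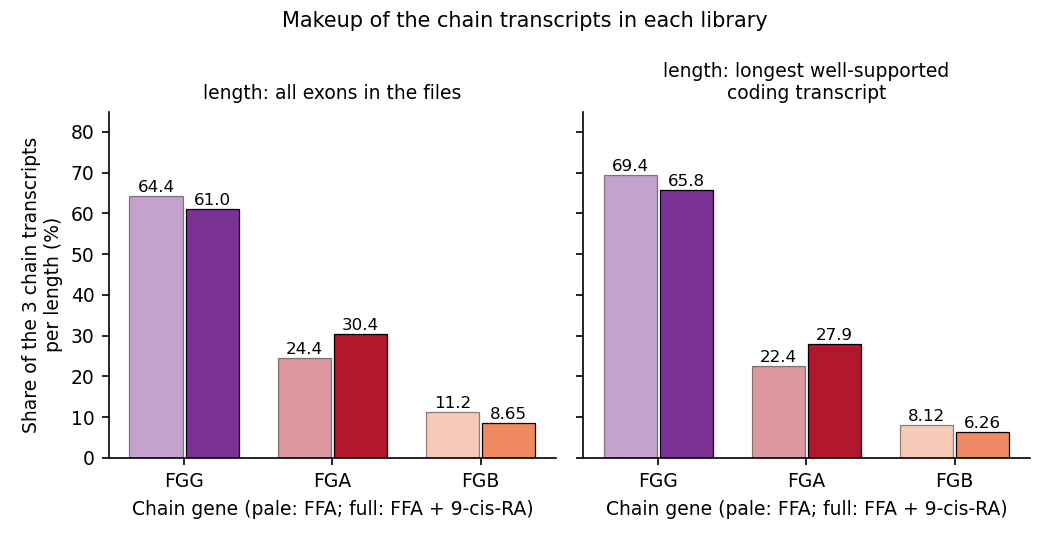
Shares (%) of FGG, FGA and FGB in the sum of the 3 chain transcripts per length, in the FFA (pale bars) and FFA + 9-cis-RA (full bars) libraries, with the exonic length of the files on the left and the longest well-supported coding transcript on the right. With either length FGG is the largest share and FGB the smallest, and FGA has a larger share in the 9-cis-RA library (30.4% against 24.4% on the left).

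The chain genes lie within a stretch of chromosome 4 where few protein-coding neighbours reached the count minimum. Noncoding neighbours were not surveyed. Of 9 other protein-coding genes that start within 1 Mb of FGA, 2 reached the count minimum. PLRG1, a splicing factor gene whose start lies at -40.3 kb from that of FGA, on the side of FGB, had 2475 and 3134 counts and a log2 fold change of 0.37 (95% interval 0.29 to 0.44). TLR2, the receptor of bacterial lipopeptides, had 327 and 215 counts and a log2 fold change of -0.58 (-0.83 to -0.32). LRAT, which makes retinyl esters from retinol and starts 36.2 kb from FGA on the side of FGG, was not counted in either library, where 0 counts leave room for a level of up to 3, so a low level of LRAT was not detectable at this depth. DCHS2, RNF175, RBM46, NPY2R, MAP9 and SFRP2 had 0 or 1 count in each library. The values of the chains, 0.84 to 1.53, were thus above those of both neighbours that could be compared.

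An annotated entry without a symbol, ENSG00000287770, lies inside an intron of FGG on the same strand, from 154605952 to 154606077 of chromosome 4, and shares no base with an FGG exon. Its counts were 10 and 46, and the log2 fold change was 2.12 (95% interval 1.22 to 3.38). Unspliced FGG RNA and a separate transcript cannot be told apart in these counts.

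All 13 other protein-coding genes that start within 1 Mb of FGL1 reached the count minimum. PCM1, a centriolar satellite gene that starts 12.5 kb away, had 14368 and 11444 counts and a log2 fold change of -0.30 (95% interval -0.34 to -0.27), beside -0.28 for FGL1. MTUS1, a microtubule-associated tumor suppressor gene, had 10778 and 9342 counts and a value of -0.18, and ASAH1, which encodes acid ceramidase, had 13997 and 12930 counts and a value of -0.087. FGL1 and its nearest neighbour PCM1 thus differed by similar amounts, with overlapping intervals. PDGFRL was lower, with 231 and 141 counts and a value of -0.68, and MTMR7, the neighbour past -1, had 10 and 2 counts. The other 8 neighbours lay between -0.21 and 0.29.

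**Figure D4:**
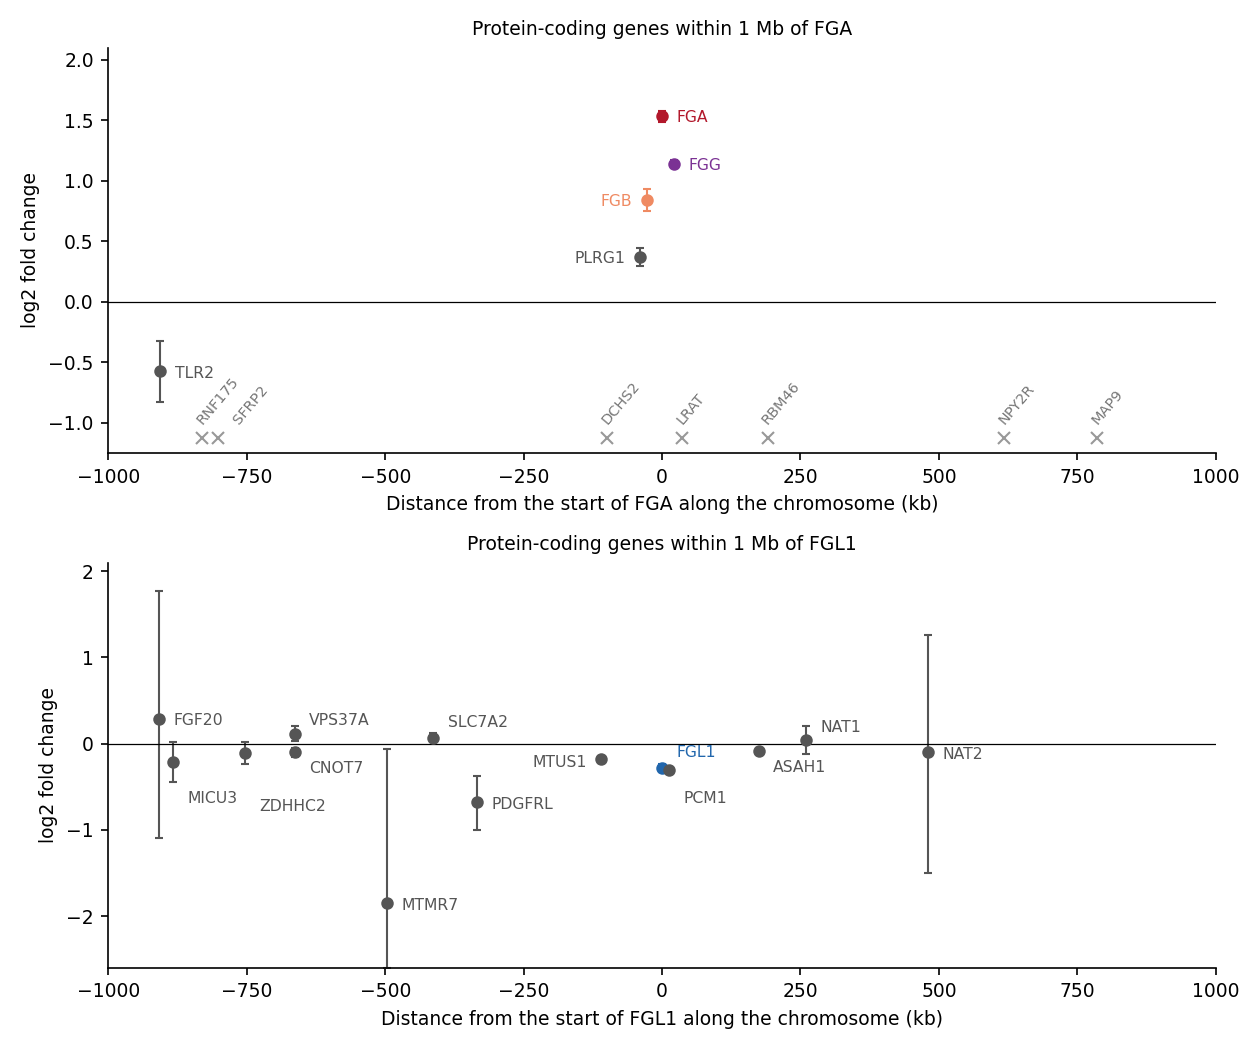
Log2 fold change (FFA + 9-cis-RA against FFA) of protein-coding genes by the distance of their start from that of FGA (upper panel) or FGL1 (lower panel), in kb along the chromosome, with exact 95% counting intervals, the lower bound of MTMR7 running off the panel. Crosses mark genes under the count minimum, which have no value, and the chains stand above PLRG1 (0.37) and TLR2 (-0.58), while FGL1 (-0.28) lies beside PCM1 (-0.30).

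Most genes that make, cross-link or dissolve fibrin were lower, unlike the chains. Of 19 such genes, 16 were compared, and the interval lay above 0 for 1, below 0 for 13 and held 0 for 2 (all genes: 22.5% above and 25.7% below), with a median log2 fold change of -0.48 beside -0.020 over all genes and 1.14 for the chains. TFPI, the inhibitor of the tissue factor pathway, had 10122 and 2454 counts and a log2 fold change of -2.02 (95% interval -2.08 to -1.95). CPB2, a carboxypeptidase that slows fibrin breakdown, had 3137 and 1437 counts and a value of -1.10. SERPIND1 (heparin cofactor II, a thrombin inhibitor) had 3978 and 1950 counts, with an interval from -1.08 to -0.92. Inhibitors of clotting and of clot breakdown were thus both among the genes that were lower. PLAU, the urokinase plasminogen activator, had 176 and 74 counts and a value of -1.21, and FN1, the fibronectin that binds fibrin, had 101411 and 68623 counts and a value of -0.54. F2, which encodes prothrombin, the precursor of the enzyme that cuts fibrinogen, had 12210 and 11550 counts and a value of -0.053. SERPINF2, the plasmin inhibitor, was the gene above 0, at 0.12. The factor XIII genes F13A1 and F13B, whose enzyme cross-links fibrin, and PLG, the plasminogen gene, had 0 counts in both libraries.

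Of 16 other coagulation factors and vitamin K enzymes, 14 were compared. The interval lay above 0 for 0 genes, below 0 for 9 and held 0 for 5, beside 22.5% above and 25.7% below over all genes, and the median was -0.32. The lowest of those named by rule were F11 with 261 and 121 counts (-1.08), PROZ, a cofactor in the inhibition of factor X, with 587 and 348 (-0.73), F12 with 414 and 265 (-0.61) and F5 with 2610 and 1725 (-0.57). The 3 chains had log2 fold changes of 0.84 to 1.53 between the same libraries.

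The 16 positive acute phase genes, plasma proteins that the liver makes more of in inflammation, gave 12 to compare. The interval lay above 0 for 4, below 0 for 5 and held 0 for 3 (all genes: 22.5% above and 25.7% below), with a median of -0.18. HP, which encodes haptoglobin, had 2346 and 1273 counts and a log2 fold change of -0.85 (95% interval -0.95 to -0.76). HAMP, the iron hormone hepcidin, had 87 and 141 counts and a value of 0.72 (0.33 to 1.13). None of the 12 had a value as high as that of FGB, which the intervals of HAMP and of CP (32 and 50 counts) cover. CRP and SAA1, inducible acute phase genes, had 0 counts in both libraries. All 6 negative acute phase genes, which the inflamed liver makes less of, were lower, with a median of -0.48, SERPINA7 (thyroxine-binding globulin) from 5791 to 2311 counts, AHSG (fetuin-A) at -0.89 and ALB (albumin) at -0.70.

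Among 15 components of IL-6 type signalling, all were compared, with 8 intervals above 0, 5 below 0 and 2 that held 0 (all genes: 22.5% above and 25.7% below), and the median was 0.096. SOCS3, a feedback inhibitor induced by STAT3, had 80 and 137 counts and a log2 fold change of 0.80 (95% interval 0.40 to 1.22). CEBPD, an acute phase C/EBP factor, had 918 and 505 counts and a value of -0.83 (-0.99 to -0.68). The interval of SOCS3 covered the value of FGB, 0.84. STAT3 itself had 5733 and 5653 counts, a value of 0.0074, and IL6ST, the shared receptor subunit, had 9344 and 9038 counts, a value of -0.020.

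Of 17 liver-enriched transcription factors and nuclear receptors, 3 had an interval above 0, 10 below 0 and 4 held 0. Over all genes 22.5% lay above and 25.7% below, and the median of the 17 was -0.26. PROX1 had 5854 and 2080 counts and a log2 fold change of -1.46 (95% interval -1.54 to -1.39), and NR1H4, the bile acid receptor, had 2305 and 1260 counts and a value of -0.84. FOXA3 stood at -0.80, NR2F1 at -0.72 and FOXA1 at -0.51. CEBPA, a C/EBP factor, had 19131 and 19873 counts and an interval from 0.054 to 0.11. RXRA, a receptor of 9-cis-RA, had 8291 and 5978 counts and a value of -0.44. None of these factors was higher by as much as FGB, the chain with the smallest difference.

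The endoplasmic reticulum, where the chains are assembled, was covered by 13 genes of folding and export. Their interval lay above 0 for 2, below 0 for 8 and held 0 for 3 (all genes: 22.5% above and 25.7% below). The median was -0.13, with values between -0.41 and 0.070. LMAN1, a cargo receptor for export of clotting factors, had 10404 and 10713 counts, and HSPA5, the chaperone BiP, had 68669 and 63043.

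The other genes with a fibrinogen C-terminal domain, relatives of FGL1, were mostly scarce. Of 20, 10 were compared and 7 had 0 counts in both libraries. The interval lay above 0 for 3, below 0 for 2 and held 0 for 5 (all genes: 22.5% above and 25.7% below). The median was 0.026. FGL2, the closest in name to FGL1, had 49 and 22 counts, and ANGPTL4, an inhibitor of lipoprotein lipase, had 48 and 78 counts. ANGPTL2 had the most, 1007 and 934 counts, well under the 8191 and 6621 of FGL1.

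**Figure D5:**
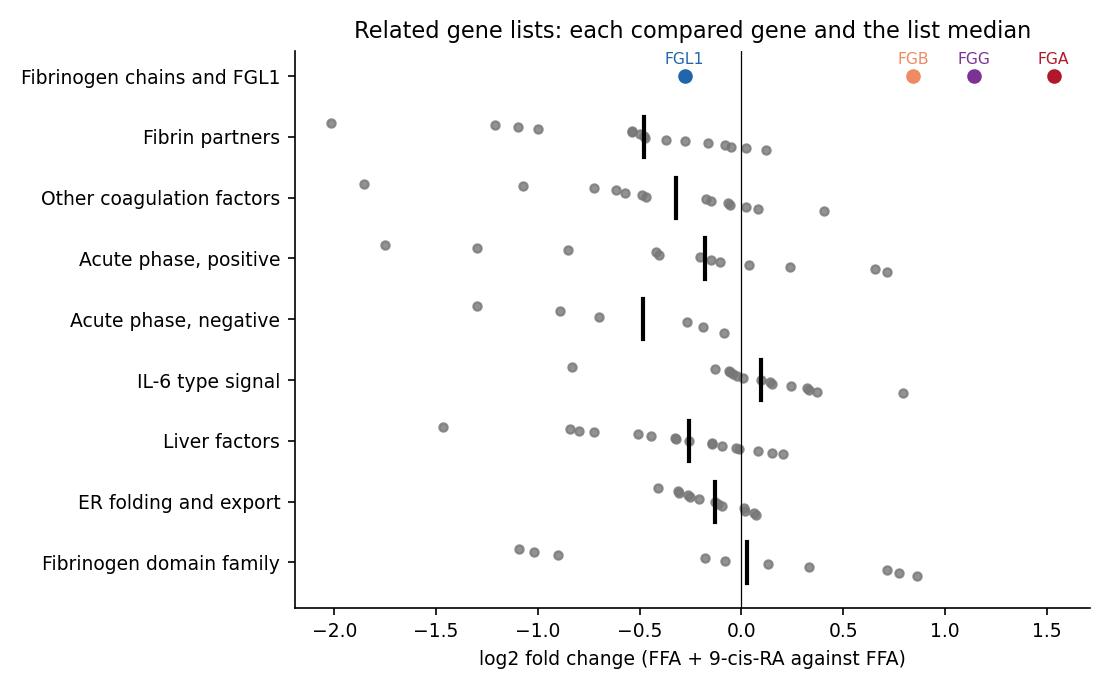
Log2 fold change (FFA + 9-cis-RA against FFA) of the 3 chains and FGL1 in the top row and of each compared gene (gray points) of 8 related lists below, with the median of each list as a black bar. FGA and FGG stand to the right of the points of all 8 lists, while FGL1 (-0.28) lies within the spread of the lists.

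The genes most like the chains were taken as the 5 protein-coding genes, among those with 1000 or more normalized counts in each library, whose log2 fold change was nearest to the chains' median of 1.14, a likeness over only 2 libraries. They were FABP1, the liver fatty acid-binding protein, with 1349 and 2871 counts and a value of 1.12, LPCAT3, a phospholipid acyltransferase, with 5403 and 11395 and 1.10, and FURIN, a proprotein convertase, with 11177 and 23494 and 1.10. HOXA5, a homeobox factor, had 1098 and 2501 counts and a value of 1.21, and MPP1, a membrane scaffold protein, had 2852 and 5801 and 1.05. The median of the chains is the value of FGG itself, so the choice of these genes fixes their closeness to FGG.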

How the data were processed

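RNA-seq was analyzed in 2 HepG2 libraries, 1 per group. The deposited values are unnormalized counts of fragments per gene from featureCounts 2.0.1, run by the authors on read pairs with strand setting 2 and without reads that overlap several genes. The aligner is not given in the sources used here. All 60623 entries were read, and columns of samples outside the series numbered 0. Size factors came from DESeq2 version 1.42.0, with TMM factors of edgeR version 4.0.16 as an alternative, in R version 4.3.3. Intervals (scipy 1.17.1), trends (statsmodels 0.14.6), ranks and motif matches (numpy 2.4.6, pandas 2.3.3) and plots (matplotlib 3.10.9) were made in Python 3.11.15. Gene positions and exonic lengths were those given with the counts, on GRCh38. Gene types and transcripts came from GENCODE 29, and promoter windows from RefSeq. No model was fitted. The size factors, log2 fold changes and their intervals were tested on simulated Poisson counts without spread between cultures, and the other steps were not tested this way.

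The members and the gene lists were chosen with earlier results of these data known. Named genes were the 4 members, protein-coding genes within 1 Mb of FGA or FGL1, up to 5 genes per list with at least 100 normalized counts in a library and a log2 fold change past 0.5 in either direction, LAG3, the 5 genes nearest to the chains, and 3 retinoid response genes. Other genes named from the lists, CYP24A1, SREBF1 and the entry inside FGG were chosen after their values were seen. Some genes of the lists are not reported here by name. Alternatives were other scalings, pseudocounts of 0.1 and 5, count minimums, removal of trends (loess span 0.3) and, added after the data were seen, transcript lengths.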

Additional observations from a re-analysis of the deposited data

How the results depend on the processing

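The 4 genes kept their direction under every alternative tried, and FGA and FGG stayed the 2 past a log2 fold change of 1. The other scalings move all genes together, by up to 0.049 at the median of all compared genes. Pseudocounts hardly move well-counted genes, so neither of these kinds of alternative could change a direction or a place relative to 1. Values ran from 1.53 to 1.58 for FGA, 0.81 to 0.89 for FGB, 1.14 to 1.19 for FGG and -0.28 to -0.23 for FGL1. Of 28 such values, 4 moved by more than the counting interval: with total counts FGA was at 1.58, FGG at 1.19 and FGL1 at -0.23, and without mitochondrial genes and the 10 most abundant genes FGG was at 1.18. Of 90 list medians under an alternative, 85 stayed between the medians of their genes' lower and upper interval bounds, and 0 reversed. That band is not a counting interval of the median, and shifts inside it can be large. With at least 50 counts the median of the fibrinogen domain family was 0.33 beside 0.026. That of the other coagulation factors was then -0.17 beside -0.32. For the endoplasmic reticulum genes the median was -0.083 with total counts and -0.092 without mitochondrial genes and the 10 most abundant genes. It was -0.16 and -0.069 with the trend on length or expression removed. For the hepatocyte markers the median was -0.19 with the trend on length removed. Ratios per length moved with the length used, in lengths chosen after the data were seen. With the longest coding transcript, FGA to FGG was 0.198 and 0.260, FGB to FGG 0.117 and 0.0951, and FGA to FGB 1.69 and 2.73 in the FFA and FFA + 9-cis-RA libraries. With the longest well-supported one, they were 0.323 and 0.425, 0.117 and 0.0951, and 2.76 and 4.46. Coding lengths from RefSeq proteins were not run. No paired analysis was possible because each group has 1 library and the labels give no replicate numbers. With 1 library per group, the spread between cultures could not be measured.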
